A study of Mus musculus with 6 samples.

Results

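The MYC network and 3 nucleolar proteins were compared in a pair of B16 mouse melanoma subclones, Tyr-H and Tyr-L cells, which differ in tyrosinase activity. The members were 10 genes chosen by symbol, of 20788 genes that any of the libraries listed. Of these, 7 encode transcription factors of the network (Myc, Mycn, Max, Mxd1, Mxd4, Mxi1 and Mnt) and 3 encode abundant proteins of the nucleolus (Ncl, Fbl and Npm1). All 10 symbols were found in the files. RNA had been sequenced in 3 libraries of Tyr-L cells, labelled as low in tyrosinase activity, and 3 of Tyr-H cells, labelled as high. Both carry the C57BL/6 background and were grown in low glucose DMEM with serum, with no added agent named for either. The study describes picking single colonies, and the sources used here do not say how many clones, or whether separate cultures, stand behind the 3 libraries of a group. The p-values therefore measure the spread between these libraries, which may be technical.

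MYC and its relative MYCN bind DNA as dimers with MAX at the E-box CACGTG and raise transcription of growth genes. MXD1, MXI1, MXD4 and MNT also pair with MAX, occupy the same motif and recruit SIN3 and histone deacetylases, so that they counter MYC. Ribosome production in the nucleolus is a classical output of MYC, and the genes for nucleolin (Ncl), fibrillarin (Fbl) and nucleophosmin (Npm1) are long known as MYC targets. In melanocytes and melanoma, MYC has been linked to proliferation and to escape from senescence.

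Library depth was estimated from the lowest FPKM values (fragments scaled to transcript length and library depth) at 18600000 to 21100000 fragments. Tyr, the gene for tyrosinase, had a mean level of 10 ± 0.602 FPKM (SD, n = 3) in Tyr-L against 21.3 ± 2.14 in Tyr-H, in the direction of the labels. Of the 7 melanocyte lineage markers, 6 passed an adjusted p of 0.05 as lower in Tyr-H in limma's fit, among them Mitf, the lineage's master regulator (log2 fold change -1.85), and only Tyr passed as higher, where 39.9% of all tested genes were lower and 17.9% higher. After scaling the libraries by the median ratio of their genes, 4 were lower, Tyr was higher and Tyrp1 and Mlana did not pass (-0.08, adjusted p = 0.23, and -0.09, adjusted p = 0.062). On that scale 27% of all tested genes were lower and 27.9% higher. With quantile normalization 6 markers were lower and Tyr higher, where 27.8% of all tested genes were lower and 26% higher. Of 13 markers of other cell types, 5 were not listed in any library, and the sum of the others ranged over 0.354 to 0.452 FPKM in Tyr-L against 0.612 to 0.867 in Tyr-H. Their part in the results was not tested.

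Because network factors bind the E-box, the RefSeq promoter windows of the members (GRCm38.p6, 250 bases before to 50 after each start) were searched for CACGTG, which reads the same on both strands. Windows were given for 7 of the 10 members, with no entry for Myc, Fbl and Npm1. The motif lay in the windows of 3 genes of the network itself, and 7.15% of all 32851 windows held it. These 3 sites are shown on the gene's strand with 10 bases on either side and the motif in capitals.
Mxd4, chr5:34187914-34187939, minus strand: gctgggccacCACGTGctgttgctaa
Mnt, chr11:74830791-74830816, plus strand: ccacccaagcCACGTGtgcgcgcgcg
Max, chr12:76962236-76962261, minus strand: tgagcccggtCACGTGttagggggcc
The motif began 219 bases before the start in Mxd4 and 123 bases before it in Mnt, and in Max it began 3 bases before the start and ran across it. No CACGTG was found in the windows of Mycn, Mxd1 and Ncl, nor at the 3 start sites given for Mxi1. The related motif CACGCG, searched on both strands, was in none of the members' windows and in 9.27% of all windows. A match describes the letters of the window and not binding.

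In Tyr-H cells, Mxi1 transcripts were higher and Mnt and Ncl transcripts lower than in Tyr-L cells, by less than a factor of 2 in each case and under every scaling of the libraries tried. Myc was lower as deposited but did not pass the test with median ratio scaling (adjusted p = 0.079). With quantile normalization its adjusted p was 0.046. Of the 10 members, 9 passed the filter on low values and were tested. By limma's adjusted p of at most 0.05, 7 were lower in Tyr-H and 1 was higher, where 39.9% of all 14336 tested genes were lower and 17.9% higher. None of the 9 also reached an absolute log2 fold change of 1, which 8.75% of tested genes did, and 8 of them had an unadjusted p under 0.05, as did 62.4% of tested genes. The libraries of the 2 groups did not overlap for 8 of the 9 members, which held for 64% of tested genes. The members' median log2 fold change was -0.22, against -0.15 over all tested genes. Scaling the libraries by the median ratio of their genes moved the median of all genes to -0.01, and member changes are given on both scales. In RNA from whole cultures, fewer cells of a type and less RNA per cell cannot be told apart. The plot of member levels shows all libraries.

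**Figure D1:**
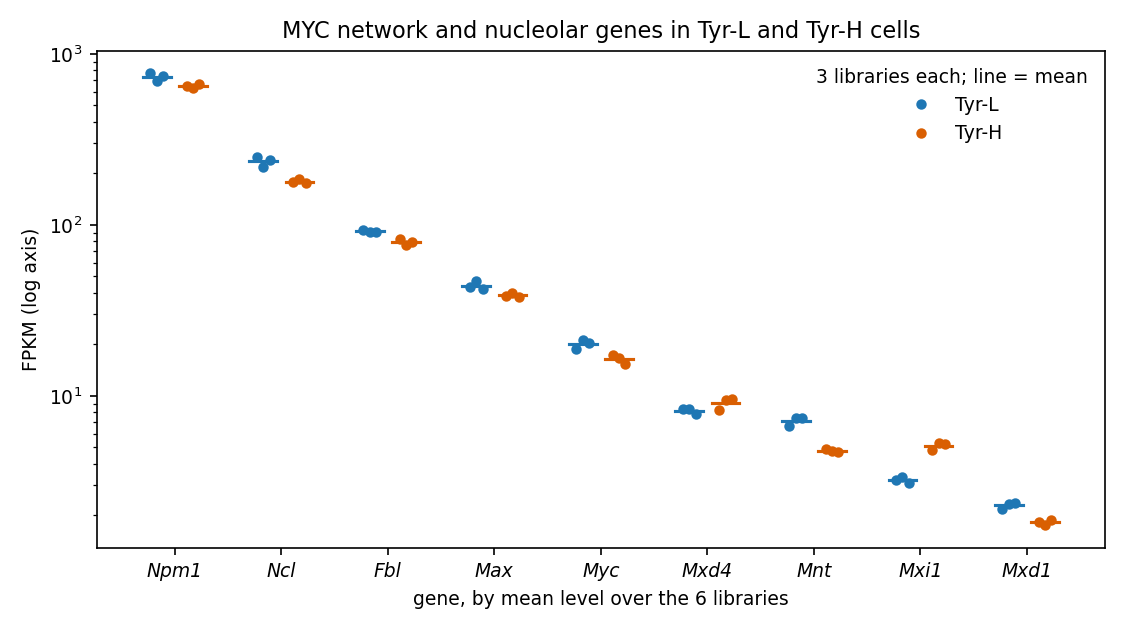
FPKM of the 9 tested members on a log axis, with a point for each library (3 Tyr-L, blue; 3 Tyr-H, orange) and a line at each group's mean. Mxi1 was higher in every Tyr-H library, Mxd4 overlapped between groups, and the other 7 were lower in every Tyr-H library than in any Tyr-L library.

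Myc (ENSMUSG00000022346, chr15:61985391-61990374, plus strand of GRCm38), the network's main activator, was 18.9, 21.2 and 20.5 FPKM in Tyr-L, against 17.4, 16.6 and 15.3 in Tyr-H. All 3 Tyr-H libraries were under the lowest Tyr-L library. The log2 fold change was -0.30 (SE 0.06, 95% interval -0.44 to -0.16, limma adjusted p = 0.0025), a fall of 18.8% in the mean. Scaled by the median ratio, it was -0.15 (-0.29 to -0.00) and no longer passed the test (adjusted p = 0.079). Quantile normalization gave -0.17 (-0.31 to -0.03, adjusted p = 0.046).

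Mycn (ENSMUSG00000037169, chr12:12936093-12941914, minus strand), the activator best known from neural crest tumours, was close to absent. It was listed at 0.0176 FPKM in Tyr-L library 3 and 0.0415 FPKM in Tyr-H library 1 and in no other library. Both values are under its floor of 3 fragments, 0.0531 to 0.0604 FPKM, so a difference was not detectable at this depth and no fold is given. Mycl, the third MYC paralog, was also too low to be tested.

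Max (ENSMUSG00000059436, chr12:76937269-76962201, minus strand), the obligate partner of activators and antagonists alike, was 43.3, 46.7 and 42.2 FPKM in Tyr-L, against 38.1, 39.9 and 38.0 in Tyr-H. The groups did not overlap, and the log2 fold change was -0.19 (SE 0.05, -0.29 to -0.08, limma adjusted p = 0.0063). This lay next to the median of all genes, and under median ratio scaling the change was -0.03 (-0.14 to 0.07, adjusted p = 0.56). Quantile normalization gave -0.10 (adjusted p = 0.095). Max exceeded Myc in every library, with a Max to Myc ratio of 2.18 ± 0.118 in Tyr-L against 2.36 ± 0.148 in Tyr-H (SD, n = 3) that overlapped between groups.

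Among the antagonists, Mxi1 and Mnt went in opposite directions. Mxi1 (ENSMUSG00000025025, chr19:53310518-53375810, plus strand), also called MAD2 and known as a counterweight to MYC in differentiating cells, was 3.22, 3.36 and 3.11 FPKM in Tyr-L, against 4.84, 5.27 and 5.20 in Tyr-H. Every Tyr-H library was above every Tyr-L library. The means stood in a ratio of 1.58, with a log2 fold change of 0.64 (SE 0.08, 0.46 to 0.83, limma adjusted p = 0.00012). After that scaling the change was 0.79 (0.61 to 0.97, adjusted p = 3.1e-05).

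Mnt (ENSMUSG00000000282, chr11:74830920-74845725, plus strand), the broadly expressed antagonist that is present in cycling and resting cells, was 6.68, 7.37 and 7.40 FPKM in Tyr-L. In Tyr-H it was 4.88, 4.77 and 4.69 FPKM, all under the lowest Tyr-L value. The log2 fold change was -0.57 (SE 0.07, -0.73 to -0.41, limma adjusted p = 0.00012), a fall of 33.1% in the mean. It was -0.42 (-0.58 to -0.25, adjusted p = 0.00093) with median ratio scaling. Mnt carries the CACGTG shown above and Mxi1 has none in the windows given. The motif and the direction did not go together across members. Max (log2 fold change -0.19) and Mxd4 (0.15) carry it too, and Mxd1 (-0.32) and Ncl (-0.39) have none.

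Mxd4 (ENSMUSG00000037235, chr5:34173883-34187720, minus strand), an antagonist known from differentiating cells, was the most abundant of the 4 in both groups. It was 8.37, 8.34 and 7.83 FPKM in Tyr-L, against 8.26, 9.40 and 9.58 in Tyr-H. Tyr-H library 1 lay within the Tyr-L range and the other two above it. The log2 fold change was 0.15 (SE 0.07, -0.02 to 0.31, limma adjusted p = 0.11), while without Tyr-H library 1 it was 0.21 (adjusted p = 0.026), with median ratio scaling 0.30 (adjusted p = 0.005) and with quantile normalization 0.31 (adjusted p = 0.0046).

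Mxd1 (ENSMUSG00000001156, chr6:86647042-86669161, minus strand), the founding MAD protein, induced as many cells leave the cycle, was the lowest of the antagonists. It was 2.17, 2.32 and 2.37 FPKM in Tyr-L, against 1.84, 1.75 and 1.87 in Tyr-H, with no overlap. The log2 fold change was -0.32 (SE 0.11, -0.56 to -0.07, limma adjusted p = 0.03). The adjusted p was above 0.05 with median ratio scaling (-0.17, adjusted p = 0.21) and with quantile normalization (-0.14, adjusted p = 0.31). It was also above 0.05 when Tyr-L library 2 or 3 or Tyr-H library 1 or 2 was left out (adjusted p from 0.057 to 0.091), with log2 fold changes of -0.32 to -0.29.

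Added together, the 4 antagonists came to 20.4, 21.4 and 20.7 FPKM in Tyr-L, against 19.8, 21.2 and 21.3 in Tyr-H, so the sums overlapped. Their composition did not. Mxi1 made up 15.5 ± 0.416% of the sum in Tyr-L and 24.6 ± 0.27% in Tyr-H, and Mnt 34.3 ± 1.55% and 23 ± 1.38% (SD, n = 3). Within a library the ratio of Mxi1 to Mnt, which no scaling by a single factor can change, was 0.482, 0.457 and 0.42 in Tyr-L and 0.993, 1.1 and 1.11 in Tyr-H. The pair went from less than 1 part Mxi1 for 2 parts Mnt to nearly equal levels. These shares, and the Mxi1 to Mnt and Max to Myc ratios, were chosen after the values were seen and carry no test.

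The summed antagonists divided by Myc and Mycn gave 1.08, 1.01 and 1.01 in Tyr-L and 1.14, 1.28 and 1.4 in Tyr-H, with every Tyr-H library above every Tyr-L library. Which antagonists are counted decides this. Mxd3, a MAD family gene outside the 10 members that is known from cells in S phase, had 18.6 ± 0.249 FPKM in Tyr-L against 9.86 ± 0.468 in Tyr-H, more than any of the 4 members. These values, and the sums that use them, are uncertain. Mxd3 shares 105 exonic bases with Prelid1 on the opposite strand, which reached 256 FPKM. With Mxd3 added, the ratio was 1.95 ± 0.0825 in Tyr-L and 1.87 ± 0.168 in Tyr-H, and the groups overlapped. The summed antagonists were then 39.5 ± 0.724 and 30.7 ± 1.12 FPKM, without overlap. Mxi1 was 8.19 ± 0.25% of that larger sum in Tyr-L and 16.6 ± 0.168% in Tyr-H.

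**Figure D2:**
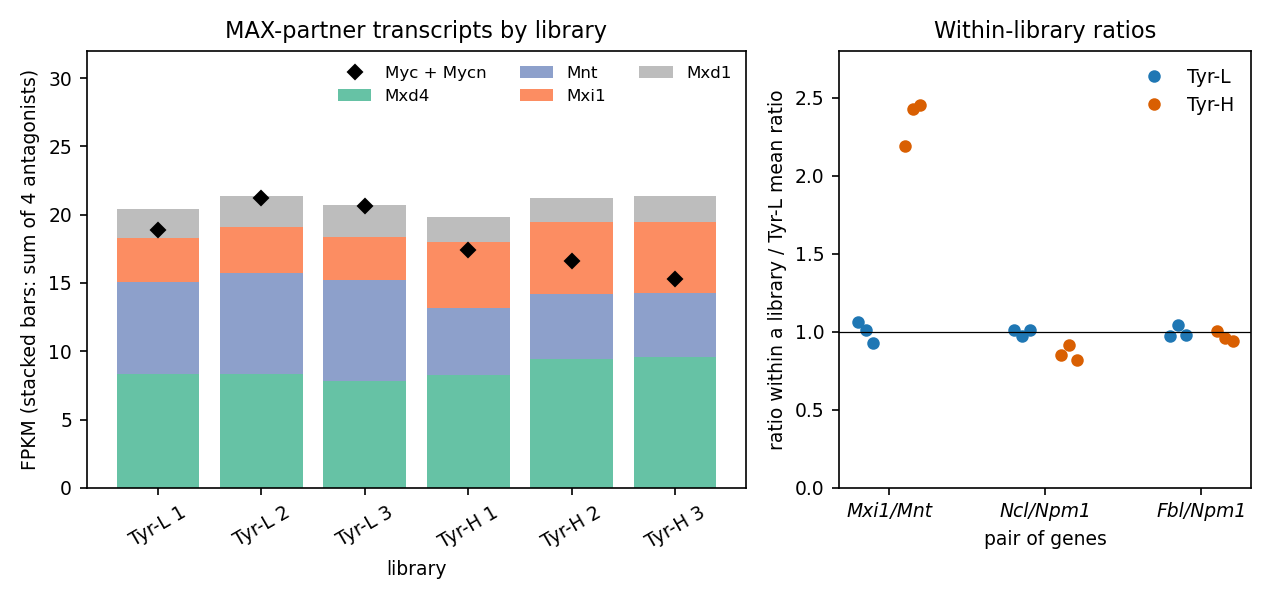
Left, FPKM in each of the 6 libraries, with the 4 antagonists as stacked bars and Myc plus Mycn as diamonds; right, 3 ratios within a library, each divided by its Tyr-L mean (blue, Tyr-L; orange, Tyr-H; 3 points each). The bars kept a like height while the Mxi1 segment was wider and the Mnt segment narrower in Tyr-H, and the Mxi1 to Mnt ratio rose to 2.36 times its Tyr-L mean.

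The nucleolar genes were the most abundant members and all 3 were lower in Tyr-H as deposited. Npm1 (ENSMUSG00000057113, chr11:33152287-33163206, minus strand), a chaperone of ribosome assembly and histones, was 769, 695 and 746 FPKM in Tyr-L, against 652, 632 and 669 in Tyr-H. The groups did not overlap, and the log2 fold change was -0.18 (SE 0.04, -0.28 to -0.08, limma adjusted p = 0.0071). The median ratio scale gave -0.02 (-0.13 to 0.08, adjusted p = 0.67), and quantile normalization -0.35 (adjusted p = 0.00062).

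Ncl (ENSMUSG00000026234, chr1:86344719-86359400, minus strand), which encodes the RNA-binding protein nucleolin of ribosomal RNA synthesis and processing, was 249, 217 and 241 FPKM in Tyr-L, against 177, 185 and 175 in Tyr-H. All Tyr-H libraries were below all Tyr-L libraries. The log2 fold change was -0.39 (SE 0.05, -0.51 to -0.28, limma adjusted p = 0.00016), a fall of 24.0% in the mean. On the median ratio scale it was -0.24 (-0.35 to -0.13, adjusted p = 0.0025), so that Ncl was the only one of the 3 to pass on both scales.

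Fbl (ENSMUSG00000046865, chr7:28169710-28179269, plus strand), the methyltransferase of box C/D small nucleolar RNPs, was 93.7, 91.3 and 91.3 FPKM in Tyr-L, against 82.3, 75.8 and 79.0 in Tyr-H. The groups were apart, with a log2 fold change of -0.22 (SE 0.04, -0.31 to -0.14, limma adjusted p = 0.00078). Under median ratio scaling it was -0.07 (-0.16 to 0.02, adjusted p = 0.18), and with quantile normalization -0.17 (adjusted p = 0.0048).

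The 3 genes were also set against each other within each library. Ncl relative to Npm1 was 0.324, 0.312 and 0.324 in Tyr-L and 0.272, 0.293 and 0.262 in Tyr-H, without overlap. Fbl relative to Npm1 was 0.125 ± 0.00529 and 0.121 ± 0.00436 (SD, n = 3), and these libraries overlapped, as did Ncl relative to Fbl (2.56 ± 0.16 and 2.27 ± 0.156). Unequal change within a pair does not show which gene of it moved.

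**Figure D3:**
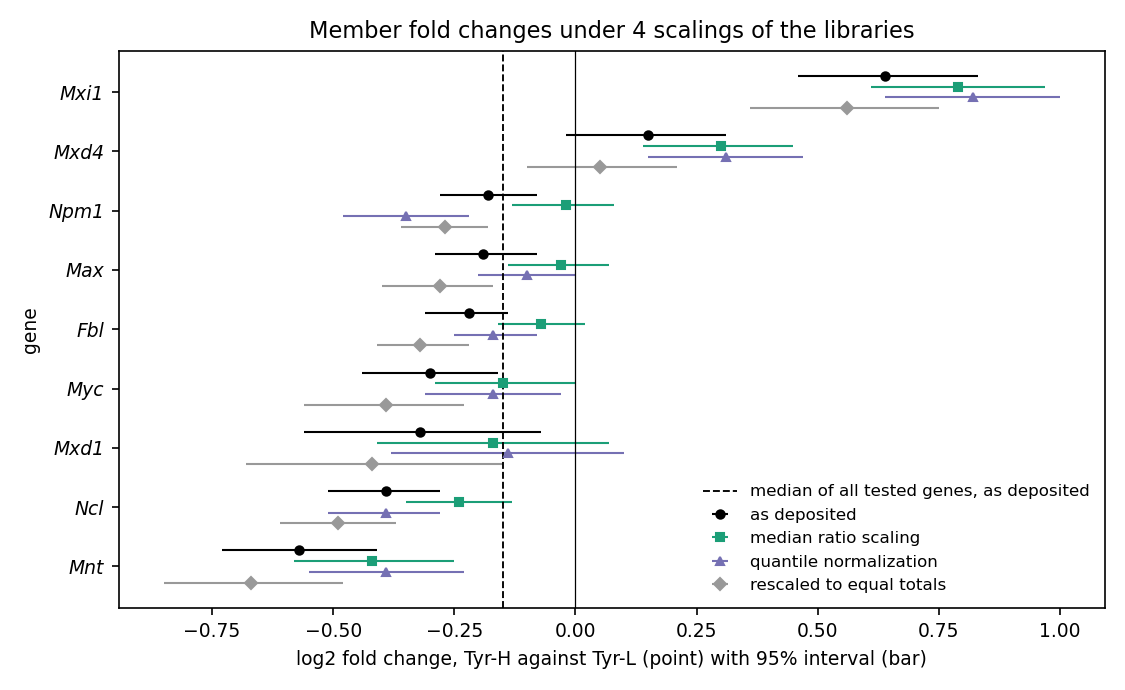
Log2 difference, Tyr-H minus Tyr-L, for the 9 tested members (points) with 95% intervals (bars) under 4 scalings of the libraries; the dashed line is the median of all tested genes as deposited, -0.15. Intervals for Mxi1, Mnt and Ncl stayed clear of 0 under all 4 scalings, and those for Max, Mxd1, Fbl, Npm1 and Mxd4 reached across 0 under at least 1, while that of Myc ended next to 0 with median ratio scaling.

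Across the 4 scalings, Mxi1 (0.56 to 0.82), Mnt (-0.67 to -0.39) and Ncl (-0.49 to -0.24) passed the test every time. With median ratio scaling 2 members were lower (Mnt and Ncl) and 2 higher (Mxi1 and Mxd4), where 27% of all tested genes were lower and 27.9% higher. With quantile normalization 5 were lower and 2 higher, where 27.8% of tested genes were lower and 26% higher. The member median was -0.07 with median ratio scaling and -0.17 with quantile normalization, against -0.01 over all tested genes in both. For single genes the exact permutation test of 3 against 3 libraries, two-sided, gave p = 0.1 for the 8 members without overlap, the smallest it can give, and p = 0.3 for Mxd4.

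The order of levels per length was nearly the same in both groups. In Tyr-L, mean FPKM ran from Npm1 (737), Ncl (236), Fbl (92.1), Max (44.1) and Myc (20.2) to Mxd4 (8.18), Mnt (7.15), Mxi1 (3.23) and Mxd1 (2.29), and no neighbours in that order overlapped between libraries. In Tyr-H, Mxi1 (5.10) stood level with Mnt (4.78), and these were the only neighbours whose libraries overlapped. Npm1 was at the 99.5th percentile of mean level among tested genes, Myc at the 71.5th and Mxd1 at the 29.9th.

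Among the 5 genes whose profile over the 6 libraries was most like that of Myc were Elovl5, Dnajc18, Rcc1 and Klhl18, of 11025 genes whose mean was no lower than 1 FPKM. The root mean square difference of centred log2 values from those of Myc was 0.019 for Elovl5, an enzyme of fatty acid elongation, and 0.026 for Klhl18. Rcc1, the nucleotide exchange factor of the RAN GTPase, was at 0.024. Rcc1 shares 135 exonic bases with Snhg3, so its values are uncertain. Among the other members, Mxd1 was nearest to Myc (0.075, rank 605), followed by Fbl (0.089, rank 1079) and Max (0.089, rank 1104), and Mxi1 was farthest (0.481, rank 10216).

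Beyond the members, the wider MAX and MLX network had 4 tested genes of 6, of which 3 were lower in Tyr-H and none higher by limma's adjusted p as deposited. Scaled by the median ratio, 2 were lower and Mlx, the partner of the MLXIP branch, passed as higher (-0.00 as deposited, 0.15 scaled, adjusted p = 0.025). For this and the following lists, the shares over all tested genes to hold the counts against are 39.9% lower and 17.9% higher as deposited, and 27% lower and 27.9% higher with median ratio scaling. Mxd3 had a log2 fold change of -0.91 (adjusted p = 1.2e-06). Mga, which pairs with MAX in a repressive complex related to Polycomb, went from 9.36 ± 0.923 to 5.50 ± 0.308 FPKM, with a log2 fold change of -0.75 (adjusted p = 5.6e-05). Both also passed with median ratio scaling, at -0.76 and -0.60, whereas Mlxip, a glucose-sensing partner of MLX, did not (-0.19 as deposited, -0.03 scaled, adjusted p = 0.69). Mxd3 shares 105 exonic bases with Prelid1 on the opposite strand, which reached 256 FPKM, and the part of Prelid1 reads in the Mxd3 values was not tested.

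Of 20 genes for MYC cofactors and turnover, 13 were lower and 2 higher, with a median log2 fold change of -0.35 against -0.15 over all genes. With median ratio scaling 12 were lower and 5 higher, with a median of -0.20. Skp2 and Fbxw7, F-box proteins that both direct MYC to ubiquitin ligases, had log2 fold changes of -0.83 and -0.79 (limma adjusted p = 4.3e-06 and 1.3e-05). Trrap, the scaffold that MYC uses to recruit histone acetyltransferases, went from 33.7 ± 1.71 to 20.2 ± 0.91 FPKM (-0.74, adjusted p = 3.9e-06). Pim1, a kinase that cooperates with MYC, was higher in Tyr-H (1.23 ± 0.18 to 1.94 ± 0.162 FPKM, log2 fold change 0.62, adjusted p = 0.0054).

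Of 15 genes for RNA polymerase I and its factors, which transcribe ribosomal DNA, 8 were lower and 1 higher as deposited, and 5 lower and 4 higher with median ratio scaling. The list's median was -0.11, or 0.04 when scaled, and its scaled counts were near the shares of 27% lower and 27.9% higher over all genes. The termination factor Ttf1 fell from 4.64 ± 0.119 to 2.23 ± 0.0152 FPKM (log2 fold change -1.02, limma adjusted p = 9.5e-06). Taf1a and Taf1d, subunits of the promoter selectivity factor SL1, had log2 fold changes of -0.76 and -1.06, and Znrd1, a polymerase subunit, -0.55. Ttf1 and Taf1d alone reached an absolute log2 fold change of 1, and with median ratio scaling neither did (-0.87 and -0.91). Taf1d shares 235 exonic bases with 4931406C07Rik (up to 23.2 FPKM) and 77 with Cep295 (up to 11.2 FPKM), both on the opposite strand, and hosts small nucleolar RNAs in its exons. The part of those genes' reads in the Taf1d values was not tested.

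The snoRNP list holds core and assembly proteins of box C/D particles, to which fibrillarin belongs, and of box H/ACA particles. Of its 12 genes, 5 were lower and 3 higher, and 4 and 3 with median ratio scaling, with a median of -0.15 (0.00 scaled). As deposited this is near the 39.9% lower and 17.9% higher of all genes, so the list did not stand apart by its counts. The core box C/D proteins Nop58 and Nop56 had log2 fold changes of -0.52 (166 ± 6.75 to 115 ± 2.44 FPKM, limma adjusted p = 4.6e-06) and -0.43 (157 ± 2.01 to 116 ± 0.556 FPKM, adjusted p = 3.2e-06). Dkc1, the pseudouridine synthase of box H/ACA particles, was at -0.52 and Nolc1, a snoRNP chaperone, at -0.45. All 4 also passed with median ratio scaling, from -0.37 to -0.27.

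Among 59 genes of ribosomal RNA processing and pre-ribosome assembly, 30 were lower and 10 higher as deposited, where 39.9% of all genes were lower and 17.9% higher. Scaled by the median ratio, 11 were lower, 19 higher and 29 not past the test, where 27% of all genes were lower and 27.9% higher. The list's median went from -0.12 to 0.03, beside all-gene medians of -0.15 and -0.01. None reached an absolute log2 fold change of 1. Mphosph10 of the small subunit processome (-0.60), Urb2 (-0.57), Surf6 (-0.46) and Wdr74 (0.50) passed an adjusted p of 0.05 on both scales, with scaled values of -0.45, -0.42, -0.30 and 0.66. Urb2 shares 586 exonic bases with the antisense gene Gm45732, listed at up to 1.76 FPKM, whose part in the Urb2 values was not tested.

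Of 23 genes known to be induced by MYC, 11 were lower and 7 higher as deposited, and 5 and 10 with median ratio scaling. Over all tested genes 39.9% were lower and 17.9% higher as deposited, and 27% and 27.9% when scaled. The list's median was -0.12, or 0.03 when scaled, against -0.15 and -0.01. Shmt2, the mitochondrial enzyme of serine and glycine metabolism, rose from 79.5 ± 5.9 to 183 ± 4.63 FPKM (log2 fold change 1.20, limma adjusted p = 3.4e-07) and was the only one past a log2 fold change of 1. Odc1, the first enzyme of polyamine synthesis, was also higher (205 ± 5.3 to 346 ± 1.62 FPKM, 0.75, adjusted p = 2.9e-07), as was the cyclin Ccnd2 (0.48). The phosphatase Cdc25a, which activates cyclin-dependent kinases, was lower (-0.50, adjusted p = 8e-06).

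Of 8 genes known to be repressed by MYC, 6 were tested, 4 were higher in Tyr-H on both scales and none lower, where 17.9% of all tested genes were higher as deposited and 27.9% with median ratio scaling. Of the 4, 3 also passed a log2 fold change of 1, which 8.75% of tested genes did in either direction. Gadd45a, a stress-response gene of growth arrest, was 5.62, 5.75 and 5.71 FPKM in Tyr-L, against 42.1, 48.9 and 53 in Tyr-H. The groups were far apart, with a log2 fold change of 3.05 (SE 0.08, limma adjusted p = 2.7e-08). Ndrg1, named for its repression by MYC proteins, rose from 9.01 ± 0.584 to 21.5 ± 2.15 FPKM (1.24, adjusted p = 2.3e-06) and Ndrg2 from 0.175 ± 0.0815 to 1.35 ± 0.258 FPKM (2.43, adjusted p = 5.7e-05). The Tyr-L values of Ndrg2, 0.0877 to 0.249 FPKM, lie near the pseudocount of 0.1, and with a pseudocount of 1 FPKM its log2 fold change was 1.00. Cdkn1a, the cell cycle inhibitor p21, rose from 92.1 ± 1.15 to 151 ± 1.01 FPKM (0.71, adjusted p = 2.7e-07). Gadd45a and Ndrg1 overlap antisense transcripts at no more than 0.6 FPKM.

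**Figure D4:**
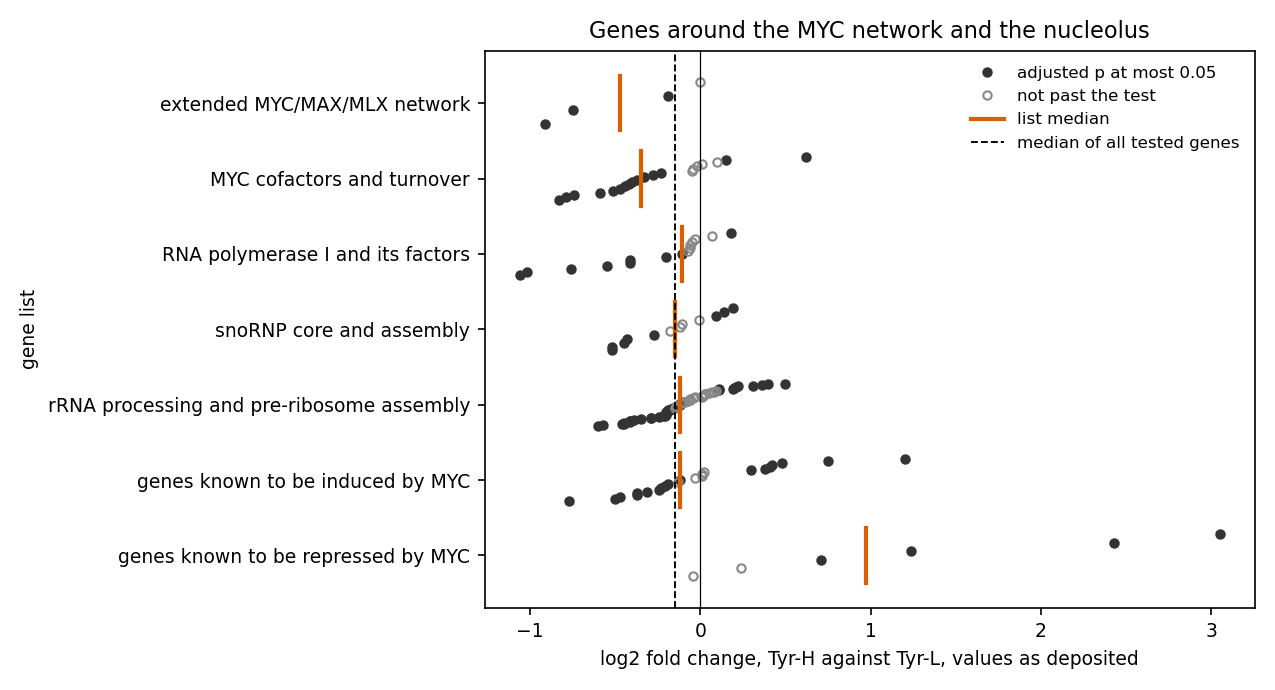
Log2 difference, Tyr-H minus Tyr-L as deposited, for each tested gene of 7 lists (points; filled where limma's adjusted p was at most 0.05), with the list median in orange and the median of all tested genes dashed at -0.15. The points of the ribosome-related lists lie on both sides of the dashed line, and 4 of the 6 repressed genes lie right of 0.5.

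Some member values carry limits of annotation. Npm1 has 8 processed pseudogenes of at least 90% identity over 300 bases, of which 4 were listed, with 0.144 to 0.264% of the summed FPKM of gene and copies. Mxi1 and Ncl have 1 such copy each, which was not listed. Mxd4 shares 514 exonic bases with the antisense gene Gm42846 (at most 0.187 FPKM) and Mxi1 shares 194 with Gm10197 (at most 0.402 FPKM). Ncl hosts Snora75, Snord82, Gm24148 and mmu-mir-3535, none of them listed, and Max, Mxd1 and Mxi1 overlap Gm47218, Gm44292 and AC133451.2 without a shared exon. Exons of Mlxip, Pim1, Nop56, Nop58, Dkc1, Ccnd2, Shmt2 and Cdkn1a also overlap those of other annotated genes, and since the sources used here do not say whether counting used strand, reads of overlapping genes cannot be told apart. Copies of the other genes named were not searched.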

How the data were processed

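The authors deposited FPKM per gene for each of 6 libraries, made from total RNA with an mRNA library kit and paired-end sequencing, with Trimmomatic, HISAT2 and HISAT and the build GRCm38.p6 named in the submitters' processing notes. The quantifier, annotation and versions are not given in the sources used here. Unlisted genes were taken as 0, since no deposited value was 0. Groups and replicate numbers came from the sample titles.

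Genes whose mean reached 0.1 FPKM were compared on log2(FPKM + 0.1) with limma 3.58.1 in R 4.3.3 (lmFit on the group term, eBayes with trended variance, two-sided, Benjamini-Hochberg over 14336 genes). Called genes had an adjusted p up to 0.05 together with an absolute log2 fold change from 1 upward. Fold changes are on the log2(FPKM + 0.1) scale, which understates those of low genes. Means and SD are of FPKM. The script was tested on simulated data.

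Depth was estimated from the single-fragment step in FPKM of genes with 1 transcript of at least 1500 bases, and floors of 3 fragments are approximate and cover counting error only. Gene coordinates, overlaps and copies came from GENCODE M21 (GRCm38), with copies searched by BLAST 2.17.0. Figures used Python 3.11.15 with matplotlib 3.10.9.

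Named were all 10 members, genes that overlap them, 4 of the 5 genes nearest to Myc and, per pathway list, called genes and, up to 4 in all, those averaging 1 FPKM or more with the largest change past the test. The remaining one is not reported here. The cell type markers, Mlx and genes that overlap list genes stand outside this rule. Of these, Mitf, Tyrp1, Mlana, Col1a1, Mlx and the overlapping genes were named after their values were seen. The members and lists were chosen with earlier results of these data known. Alternatives were pseudocounts of 0.01 and 1, no filter, a minimum mean of 1 FPKM, rescaling to equal totals, median ratio scaling, quantile normalization, no variance trend, the replicate number as a block and each library left out.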

Additional observations from a re-analysis of the deposited data

How the results depend on the processing

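No member changed sign in 135 recomputed log2 fold changes (9 members, 15 alternatives), of which 119 kept direction and side of the threshold, 13 went above an adjusted p of 0.05 and 3, all of Mxd4, went below it. The scale between groups was the main limit: with median ratio scaling 2 members were lower and 2 higher in Tyr-H, in place of 7 and 1, and with quantile normalization 2 were higher. The cause of the unequal scale was not tested. Leaving out 1 library gave 1 to 2 members higher, the 2 without Tyr-H library 1. Of the listed pathway genes, 70 were lower and 27 higher as deposited, where 39.9% of all tested genes were lower and 17.9% higher. The number of genes in each list is given above. With median ratio scaling 39 were lower and 46 higher, where 27% of all genes were lower and 27.9% higher. Rescaling to equal totals gave 87 lower and 17 higher, and the all-gene median moved from -0.15 to -0.25. Over all genes, 1254 were called as reported, 388 with a pseudocount of 1 FPKM and 640 with a minimum mean of 1 FPKM. Adding Mxd3, an alternative chosen after seeing the data, moved the ratio of antagonists to activators from 1.03 to 1.95 in Tyr-L and from 1.27 to 1.87 in Tyr-H. With no filter Mxd1 had the same fold change (-0.32) at an adjusted p of 0.054. Replicate numbers did not pair the libraries (correlations of deviations 0.0223, 0.0132 and -0.0834), and with the number as a replicate block in limma only Mxd1 among the members went above an adjusted p of 0.05 (-0.32, adjusted p = 0.061, from 0.03 without the block). Depth limits Mycn, below the floor of 3 fragments.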
